A study of Mus musculus with 84 samples.

Results

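Interferon-stimulated genes were followed in the livers of 84 male B6C3F1 mice, an F1 hybrid strain. The set was a list of 48 symbols drawn up from knowledge of the interferon response, with earlier results of these data known. Values of the members beside those of all genes therefore describe the set and do not test it. A member was analysed where its Ensembl gene had a median count above 8 over all mice. Of the 48, 46 were found in the count data, and 40 passed that limit, among 10415 genes tested of 17695 listed. Slfn2 and Ifi27l2a were not analysed here. Ifit3b, Oas2, Ifi35, Dhx58, Gbp7 and Psmb8 had a median count of 8 or fewer, stayed at or below 1.31 CPM (counts scaled to a fixed total per mouse) in every mouse and were not tested.

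Mice ate control diet or diet with 1 of 3 organophosphate pesticides (OPPs) for 7 days from 8 weeks of age, in 12 groups of 7 mice. Fenthion (FT) was given at 2.5, 5, 10 and 20 ppm, methidathion (MT) at 10, 25, 50 and 100 ppm and parathion (PT) at 20, 40 and 80 ppm in the diet, and the 11 dosed groups were all compared with the same 7 control mice. Fenthion and methidathion are dimethyl esters and parathion is a diethyl ester. The experiment ran in blocks 1, 3 and 4, which gave every group 2, 3 and 2 mice, and RNA was isolated by EA for 77 mice and by EPA for 7 (2 control, 2 FT 20 ppm, 1 MT 10 ppm and 2 MT 100 ppm). Diets were assigned to whole cages, and the labels do not give the cage, so p-values measure the spread between mice and cannot account for cage mates. Mice are numbered here within a group by deposit order, and the numbers pair no mice across groups.

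Type I interferons bind the receptor Ifnar1/Ifnar2, whose kinases Jak1 and Tyk2 activate Stat2. Together with Irf9 it takes part in a complex that binds the interferon-stimulated response element (ISRE) in the promoters of antiviral genes, while interferon gamma acts through its own receptor and a gamma-activated site (GAS) and leads to guanylate-binding proteins and antigen-processing genes. In liver, hepatocytes, Kupffer cells (the resident macrophages), endothelial cells and lymphocytes all carry such genes at some basal level.

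To show the element by which this family is usually recognised, 4 promoter windows are printed, from 250 bases before to 50 bases after the RefSeq gene start, 5′ to 3′ on the gene's strand. Bst2 and Psmb9 are shown because they had the smallest p-values at PT 80 ppm, and Isg15 and Oas1a because they are standard interferon-stimulated genes with several motif copies. Capitals mark matches to an ISRE-like motif, spelled GAAA, then any 2 bases, then GAAA, searched on both strands with overlapping matches joined. Windows were on the minus strand of GRCm39 at chr8:71990067-71990366 for Bst2, chr4:156285226-156285525 for Isg15, chr5:121045539-121045838 for Oas1a and chr17:34406255-34406554 for Psmb9.
Bst2: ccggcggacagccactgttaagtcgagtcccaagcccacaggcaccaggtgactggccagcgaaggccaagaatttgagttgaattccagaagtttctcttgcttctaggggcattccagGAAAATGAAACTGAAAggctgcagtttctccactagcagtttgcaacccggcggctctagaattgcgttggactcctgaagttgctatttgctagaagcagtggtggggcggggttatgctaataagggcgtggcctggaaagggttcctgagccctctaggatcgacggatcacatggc
Isg15: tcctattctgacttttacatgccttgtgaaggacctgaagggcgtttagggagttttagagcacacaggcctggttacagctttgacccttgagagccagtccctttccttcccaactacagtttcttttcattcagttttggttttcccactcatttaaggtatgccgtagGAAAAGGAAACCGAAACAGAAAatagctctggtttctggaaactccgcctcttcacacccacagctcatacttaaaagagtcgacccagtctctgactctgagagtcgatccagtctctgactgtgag
Oas1a: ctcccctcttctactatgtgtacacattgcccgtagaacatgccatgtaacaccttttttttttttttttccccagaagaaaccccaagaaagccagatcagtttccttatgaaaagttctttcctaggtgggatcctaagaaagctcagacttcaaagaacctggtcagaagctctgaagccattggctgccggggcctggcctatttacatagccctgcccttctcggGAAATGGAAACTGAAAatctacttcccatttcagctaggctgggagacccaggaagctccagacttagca
Psmb9: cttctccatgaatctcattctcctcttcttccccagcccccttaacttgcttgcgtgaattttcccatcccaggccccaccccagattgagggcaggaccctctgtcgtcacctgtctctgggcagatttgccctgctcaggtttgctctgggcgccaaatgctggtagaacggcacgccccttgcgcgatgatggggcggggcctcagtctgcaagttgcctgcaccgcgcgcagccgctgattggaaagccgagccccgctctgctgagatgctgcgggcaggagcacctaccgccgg

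The window of Isg15 held 3 ISRE-like matches, those of Oas1a and Bst2 held 2 each and that of Psmb9 held 0. Of the 40 members tested, 32 matched a RefSeq entry, with 37 windows, and 17 of the 37 windows (45.9%) held the ISRE-like motif, against 3.44% of all 32851 windows. A GAS-like motif, TTCNNNGAA, searched in the same way, was in 7 of the 37 (18.9%) and in 8.3% of all windows. A match describes these letters only, and its absence from a window says nothing of the factor.

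Liver RNA was measured by TempO-Seq, in which pairs of probes are ligated on the RNA and counted by sequencing. Estimated counts per mouse summed to between 6950381 and 15300589, and 3 counts corresponded to 0.196 to 0.432 CPM depending on the mouse, which covers counting error only. A CPM depends on the probe as well as the transcript, so levels are compared between mice and not between genes. Parathion 80 ppm mice 1 and 2, both of block 1, stood apart: their mean log2(CPM + 1) over the 40 members, called the module score here, was 2.28 and 3.14, the lowest of all 84 mice. Mouse 1 also had the lowest correlation with the median mouse over all genes tested, 0.929, and the calls made at PT 80 ppm are given with and without these 2 mice, a choice made after seeing the data. Reads of close relatives (Ifit3 and Ifit3b, the Oas, Gbp, Irgm and Slfn genes) may have been divided between them by the estimation of counts, so values of single genes in these families are uncertain.

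In control mice the module score was 3.92 ± 0.183 (SD, n = 7), with a range of 3.63 to 4.18. Parathion 80 ppm gave the lowest group mean, 3.48 ± 0.595, with a median of 3.629 and a highest mouse of 4.02. The medians of MT 100 ppm (3.646) and FT 2.5 ppm (3.655) were close to it. Without the mice of block 1, the PT 80 ppm mean was 3.79 ± 0.165 (n = 5) and the control mean 3.99 ± 0.147 (n = 5). These 5 control mice included the 2 isolated by EPA, while every PT 80 ppm mouse was isolated by EA. The score is not adjusted for isolator, and over all mice it averaged 4.00 for EPA (n = 7) and 3.76 for EA (n = 77). What part the isolator had in the difference was not tested. The other 10 dosed groups had means from 3.68 (FT 5 ppm) to 3.92 (FT 20 ppm). Within blocks 3 and 4, PT 80 ppm averaged 3.757 and 3.83. There FT 5 ppm (3.668 and 3.805) and FT 10 ppm (3.74 and 3.807) were lower in both blocks, and no other dosed group was. Most PT 80 ppm mice thus lay within or near the control range, and the wide SD of that group came with its 2 lowest mice.

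**Figure D1:**
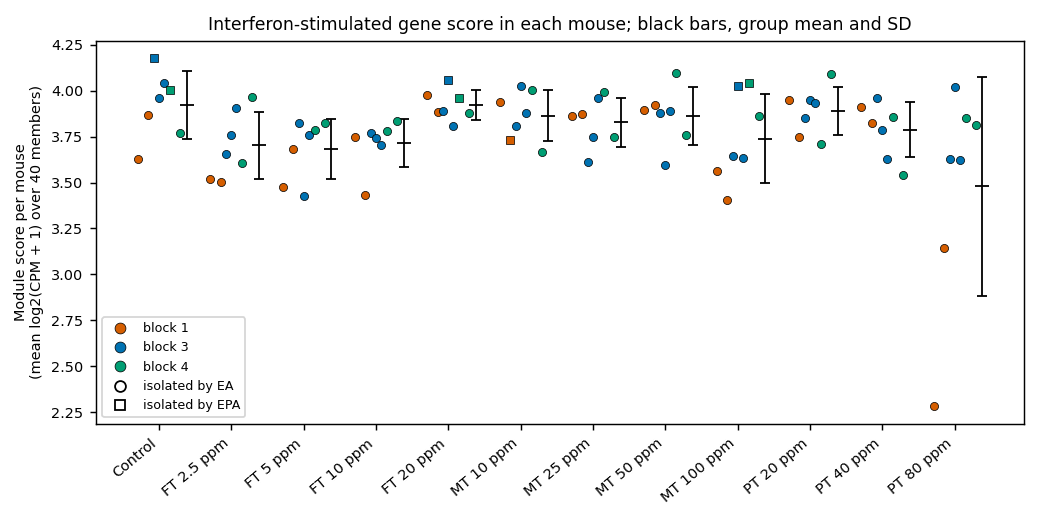
Module score (mean log2(CPM + 1) over 40 members) of each mouse in the 12 groups, coloured by experimental block, with squares for EPA and circles for EA isolation and black bars for the group mean and SD. The lowest points are PT 80 ppm mice 1 and 2, at 2.28 and 3.14, while control mice lie between 3.63 and 4.18.

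At PT 80 ppm, 18 of the 40 members were called against control by edgeR (adjusted p under 0.05), and all 18 were lower. Over all genes tested, 18.6% were called in this comparison and 8.89% were called lower. Members had a median log2 fold change of -0.42, with 37 lower and 3 higher than control, against a median of 0.0055 over all genes. At an unadjusted p under 0.05 there were 26, and DESeq2 called 19 and limma 17. Not one of the 40 members was lower in every PT 80 ppm mouse than in every control mouse, against 0.538% of all genes. In whole liver, fewer cells of a type and less RNA per cell cannot be told apart.

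The size of this result rested on the mice of block 1. Without PT 80 ppm mice 1 and 2, 2 members were called, Bst2 and Psmb9, and the median log2 fold change was -0.23, while the share of all genes called went from 18.6% to 8.5%. Leaving out mouse 1 alone left 7 members called (17.5%), with 12.3% of all genes called. Leaving out mouse 2 alone left 10, and leaving out control mouse 4 left 10, for which the share of all genes is not given here. In each of the 7 fits that left out 1 PT 80 ppm mouse, 7 of the 18 members were called: Bst2, Psmb9, Ifit2, Ifi44, Oas1a, Oasl2 and Zbp1. Within blocks, the median member difference in log2(CPM + 1) between PT 80 ppm and control mice was -1.11 in block 1, -0.27 in block 3 and -0.021 in block 4, with 36, 32 and 22 of the 40 members lower. Over all 10415 genes tested, the medians were 0.089, 0.092 and -0.035, with 4445, 3917 and 5639 genes lower. In block 4 the members thus lay near all genes. In block 3 the module score of every dosed group was below that of the same 3 control mice. Those differences ran from -0.143 (FT 20 ppm) to -0.392 (FT 5 ppm), with FT 10 ppm at -0.32 and PT 80 ppm at -0.303. The block 3 difference was thus not particular to PT 80 ppm. In 16 members the difference was below 0 in all 3 blocks, and in Usp18 it was below 0 in none. The matching count over all genes was not taken.

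Bst2 (tetherin, which holds budding viruses at the cell surface) lies at chr8:71986895-71990114 and had the smallest p of all members. Its level was 27.3, 32.1 and 38.5 CPM in the lowest, median and highest control mouse and 13.9, 19.9 and 27.5 CPM at PT 80 ppm. All but the highest PT 80 ppm mouse were below every control mouse. The log2 fold change was -0.87 (SE 0.128, edgeR adjusted p = 3.83e-07), and without mice 1 and 2 it was -0.79 (adjusted p = 4.3e-05). In the other dosed groups its median ran from 26.7 CPM (MT 100 ppm) to 34.5 CPM (MT 50 ppm). Block differences were -0.78, -0.83 and -0.51 in blocks 1, 3 and 4 in log2(CPM + 1), so the decrease was present in each block.

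Psmb9 and Tap1 represent antigen processing and lie beside each other on chromosome 17. Psmb9 encodes an inducible catalytic subunit of the immunoproteasome and Tap1 a subunit of the peptide transporter into the endoplasmic reticulum. Psmb9 had 11.8, 14.6 and 20.0 CPM (lowest, median, highest) in control mice and 2.94, 8.09 and 14.8 CPM at PT 80 ppm, with the groups overlapping through PT 80 ppm mouse 4. It fell by 1.02 on the log2 scale (SE 0.159, edgeR adjusted p = 1.81e-06), and the log2 fold change was -0.74 without mice 1 and 2 (adjusted p = 2.97e-04). The medians of PT 20 and PT 40 ppm were 13.4 and 11.1 CPM. Tap1, near 1 CPM in most mice, had a log2 fold change of 0.20 (adjusted p = 0.77).

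Among the Ifit family, whose proteins bind viral RNA, 2 of 3 tested members fell. Ifit2 ran from 7.55 over 8.11 to 10.4 CPM in control mice and from 2.94 over 6.04 to 8.54 CPM at PT 80 ppm, where mice 1 and 2 were the lowest and mice 3 and 4 were inside the control range. Its log2 fold change was -0.66 (SE 0.162, edgeR adjusted p = 0.00191). Ifit3 changed by -0.66 (adjusted p = 0.0401), and Ifit1 had a value of -0.42 (adjusted p = 0.307). With mice 1 and 2 left out none of the 3 was called by edgeR, at -0.42 for Ifit2 (adjusted p = 0.0962) and -0.28 for Ifit3 (adjusted p = 0.477).

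Isg15, a ubiquitin-like protein conjugated to other proteins, fell while Usp18, the protease that removes it and restrains receptor signalling, did not pass the test and had the opposite sign. Control mice had 39.8 to 59.6 CPM of Isg15 (median 47.6), PT 80 ppm mouse 1 had 3.49 CPM and mouse 2 had 19.6 CPM. The other 5 mice of that group lay between 28.9 and 69.1 CPM and overlapped the controls. The log2 fold change of Isg15 was -0.67 (edgeR adjusted p = 0.0187), and -0.34 (adjusted p = 0.234) without mice 1 and 2. Usp18 had a log2 fold change of 0.39 (SE 0.200, adjusted p = 0.174).

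All 3 tested members of the 2'-5' oligoadenylate synthetase family, which make the activator of RNase L or are relatives of that enzyme, fell with all mice in the fit, and none was called without PT 80 ppm mice 1 and 2. Oas1a had 3.38, 8.36 and 14.5 CPM in the lowest, median and highest control mouse and 0.324, 4.18 and 7.00 CPM at PT 80 ppm. The log2 fold change was -1.02 (SE 0.278, edgeR adjusted p = 0.00541). Oasl1 changed by -0.81 (adjusted p = 0.0104) and Oasl2 by -0.75 (adjusted p = 0.00279). Leaving out both mice gave -0.74 for Oas1a (edgeR adjusted p = 0.0866), -0.55 for Oasl1 (adjusted p = 0.145) and -0.46 for Oasl2 (adjusted p = 0.111).

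Of 13 other antiviral effectors tested, 6 fell: Bst2, Zbp1, Cmpk2, Rsad2, Rtp4 and Slfn4. Zbp1, a sensor of Z-form nucleic acid, had 3.33, 6.10 and 10.1 CPM in control mice and a median of 3.19 and a highest value of 5.82 CPM at PT 80 ppm. Mouse 1 of PT 80 ppm, at 0.0919 CPM, was under the level of 3 counts. The log2 fold change of Zbp1 was -1.35 (SE 0.368, edgeR adjusted p = 0.00574), and -1.04 (adjusted p = 0.0713) without mice 1 and 2. Slfn4, a schlafen gene of myeloid cells, varied widely, from 1.03 over 7.10 to 25.0 CPM in control mice and from 0.688 over 1.35 to 6.13 CPM at PT 80 ppm. Its log2 fold change was -1.25 (adjusted p = 0.0375). Rsad2 (viperin, which makes a chain-terminating nucleotide) changed by -0.77 (adjusted p = 0.0338), its neighbour Cmpk2, a mitochondrial nucleotide kinase, by -0.68 (adjusted p = 0.0289), and Rtp4, a transport protein, by -0.66 (adjusted p = 0.035). These 4 were not called without mice 1 and 2, at -1.08 for Slfn4 (edgeR adjusted p = 0.165), -0.42 for Rsad2 (adjusted p = 0.365), -0.35 for Cmpk2 (adjusted p = 0.339) and -0.33 for Rtp4 (adjusted p = 0.424). Mx1, Mx2, Eif2ak2, Xaf1, Slfn5, Lgals3bp and Helz2 were not called, with log2 fold changes from -0.49 (Xaf1) to 0.34 (Mx2).

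Both tested small Ifi genes fell. Ifi27, a mitochondrial and nuclear membrane protein, had 112.6, 128 and 156 CPM in control mice and 30.2, 99.4 and 126 CPM at PT 80 ppm, where mouse 1 lay far below the rest. The log2 fold change was -0.53 (edgeR adjusted p = 0.0106). Ifi44 changed by -0.76 (adjusted p = 0.0116), and its block differences in log2(CPM + 1) were -2.08, -0.71 and 0.16 in blocks 1, 3 and 4. Neither was called without mice 1 and 2, at -0.35 for Ifi27 (edgeR adjusted p = 0.0984) and -0.45 for Ifi44 (adjusted p = 0.149).

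Parp14 and Dtx3l, an ADP-ribosyltransferase and a ubiquitin ligase that partners Parp9, fell by smaller amounts. Parp14 had 43.1, 54.6 and 69.7 CPM in control mice and 27.6, 40.9 and 56.6 CPM at PT 80 ppm, with overlapping groups. Its log2 fold change was -0.41 (SE 0.117, edgeR adjusted p = 0.00802), that of Dtx3l was -0.28 (adjusted p = 0.0499) and that of Parp9 was -0.24 (adjusted p = 0.132). Dtx3l was at -0.14 (edgeR adjusted p = 0.301) without mouse 1 alone and at -0.066 (adjusted p = 0.722) without both mice, when Parp14 was at -0.26 (adjusted p = 0.179), so neither call held. Of the 4 transcription factors, Irf7, the amplifier of type I interferon output, changed by -0.53 (adjusted p = 0.0357), and by -0.31 (adjusted p = 0.295, not called) without both mice, while Stat2 (-0.27, adjusted p = 0.132), Irf9 and Irf1 were not called. None of 3 RNA sensors and ubiquitin ligases (Ifih1, Trim25, Trim30a) and none of 5 guanylate-binding proteins and immunity-related GTPases (Gbp2, Gbp3, Igtp, Irgm1, Irgm2) was called by edgeR, although Ifih1, Gbp3 and Irgm1 had an unadjusted p under 0.05. Gbp3 came nearest at -0.48 (edgeR adjusted p = 0.0566), and DESeq2 and limma called it alone among these 8 (adjusted p = 0.0464 and 0.035).

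**Figure D2:**
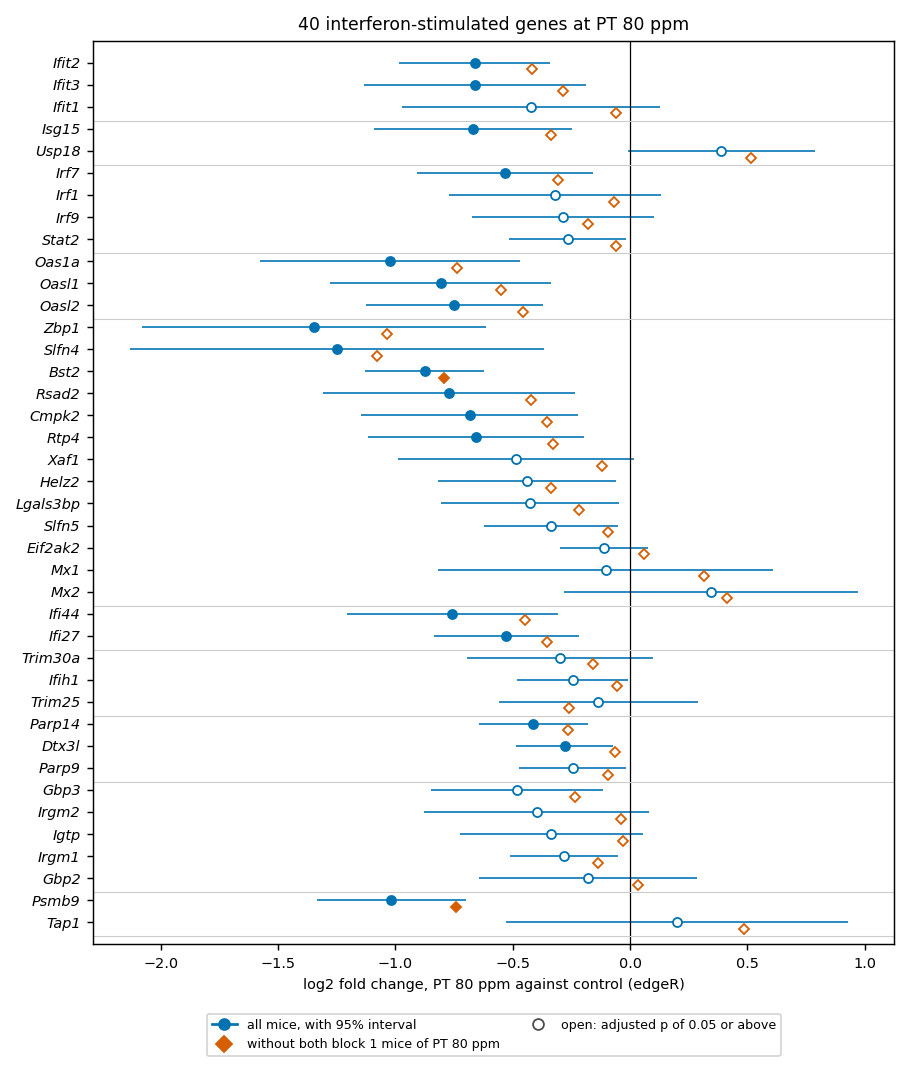
Log2 fold change of each of the 40 tested members at PT 80 ppm against control (horizontal axis), grouped by role, for all mice with 95% intervals (circles) and without PT 80 ppm mice 1 and 2 (diamonds). Filled symbols passed an adjusted p under 0.05, which 18 members did with all mice and Bst2 and Psmb9 did without the 2 mice.

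**Figure D3:**
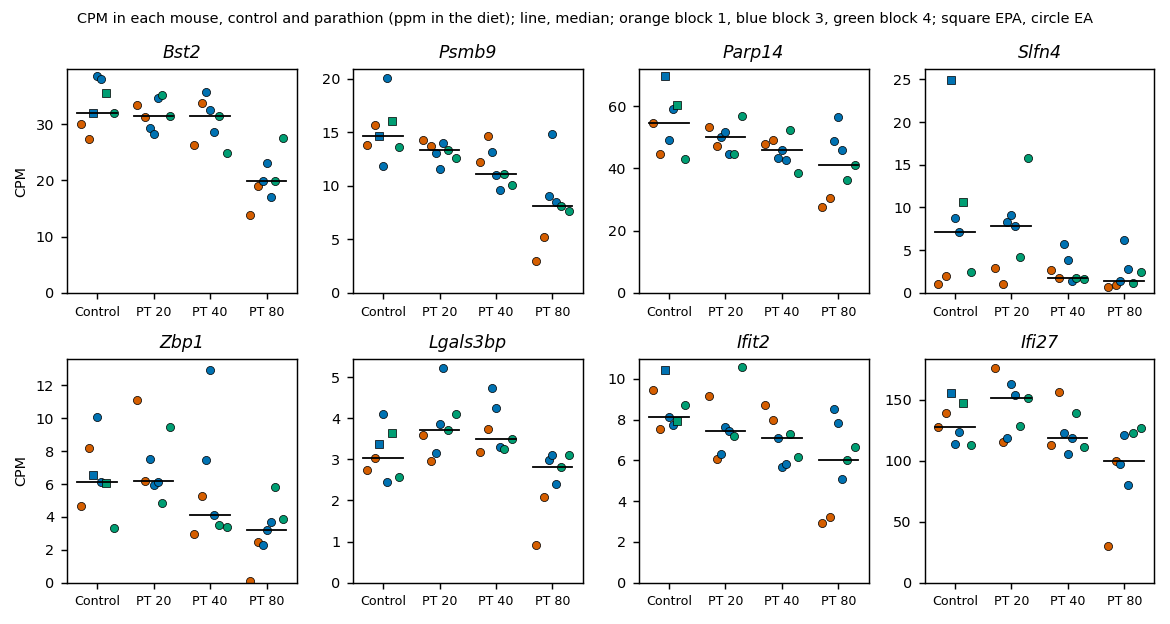
CPM in each control and parathion mouse for the 8 members with the smallest p over the 12 groups, coloured by block, with squares for EPA and circles for EA isolation and lines for medians. In mean log2(CPM + 1), Bst2 and Psmb9 are lower at PT 80 ppm than in control in all 3 blocks, although Psmb9 of PT 80 ppm mouse 4 is inside the control range. PT 80 ppm mouse 1 is the lowest point shown for each of the 8 members, at 30.2 CPM for Ifi27 and 0.0919 CPM for Zbp1.

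Genes that carry the interferon signal were examined from a list of ligands, receptors, kinases and factors, sensors, inhibitors and antigen presentation genes that are not members. Of 40 such genes tested, edgeR called 6 at PT 80 ppm (15%), all lower, a share below the 18.6% of all genes, and 3 of them (Tlr3, Traf3 and H2-K1) without mice 1 and 2. Of the ligands listed only Ifna5 and Ifng were in the count data, both with a median count of 8 or fewer, and the other 6 were not analysed here. Among 5 tested receptor genes edgeR called 0 at PT 80 ppm, also at an unadjusted p under 0.05. The log2 fold change was -0.028 for Ifnar1 (edgeR adjusted p = 0.903), 0.012 for Ifnar2 (adjusted p = 0.952) and -0.16 for Ifngr1 (adjusted p = 0.224). Of 9 kinases and factors, Irf5 fell by 0.80 on the log2 scale (edgeR adjusted p = 0.0139), against -0.59 (adjusted p = 0.152) without mice 1 and 2. Irf3 had a value of 0.020 (edgeR adjusted p = 0.873).

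Of 11 sensors and adaptors 2 fell at PT 80 ppm, Tlr3, the endosomal receptor for double-stranded RNA, by 0.59 on the log2 scale (edgeR adjusted p = 5.32e-04) and the adaptor Traf3 by 0.98 (adjusted p = 7.94e-04). Their values without both mice were -0.43 (edgeR adjusted p = 0.0329) and -1.004 (adjusted p = 0.00414). Of 5 inhibitors the phosphatase gene Ptpn6 changed by -0.30 (adjusted p = 0.0409), and by -0.20 (adjusted p = 0.324, not called) without both mice. Of 10 antigen presentation genes, the class I heavy chain H2-K1 changed by -0.29 (adjusted p = 5.9e-04) and its light chain B2m by -0.35 (adjusted p = 0.013). Mouse 1 had 356.5 CPM of B2m and the other 6 PT 80 ppm mice 614 to 771 CPM, inside the control range of 546 to 842 CPM. B2m was not called by edgeR without mouse 1 (-0.23, adjusted p = 0.0891) or without both mice (-0.26, adjusted p = 0.0847), and H2-K1 was (-0.26, adjusted p = 0.0085, without both). The class I activator Nlrc5 had a median count of 1 and was not tested.

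Marker genes of liver cell types moved at PT 80 ppm beside the members. Of 10 Kupffer cell markers, all in the table, 8 were tested, all 8 had values below control and 4 were called by edgeR (Cd5l -0.87, Clec4f -0.80, Cd68 -0.70, Csf1r -0.63 on the log2 scale). Their summed level was 109.7 to 206 CPM in control mice and 31.8 to 137 CPM at PT 80 ppm, where mice 1 and 2 had the 2 lowest sums of all 84 mice. The sum of 11 lymphocyte markers, of which Cd8a was at 0 in every control mouse, was 25.3 to 43.2 CPM in control mice and 8.18 to 39.8 CPM at PT 80 ppm, and Cd4 and Ptprc were called lower among 3 tested. Sums of 7 monocyte and neutrophil markers were 17.9 to 32.1 and 6.85 to 25.2 CPM, of 6 endothelial markers 121.7 to 149.6 and 124.4 to 164.7 CPM, and of 5 stellate markers 80.8 to 118.2 and 87.7 to 132.3 CPM. Of 5 cholangiocyte markers only Spp1 passed the limit on low counts, with 55.9 to 129.7 CPM in control mice and 11.4 to 55.6 CPM at PT 80 ppm, and the other 4 were at or below 0.56 CPM in control mice. The 8 hepatocyte markers, which check the label of liver, were abundant in every mouse, with sums of 41190 to 61880 CPM in control mice and 51870 to 71560 CPM at PT 80 ppm, and Cyp2e1, Hnf4a and Cps1 were called higher. Plasmacytoid dendritic cell markers other than Bst2 (Siglech and Ccr9) summed to at most 1.01 CPM in control mice and 1.12 CPM at PT 80 ppm. The sum of 9 acute phase genes, secreted by hepatocytes in inflammation, ran from 11900 to 99570 CPM in control mice. At PT 80 ppm it ran from 9746 to 21320 CPM, with 6 of the 9 called lower. The control median of this sum, 54250 CPM, was the highest of all groups. In dosed groups the median ran from 10990 CPM (PT 80 ppm) to 38330 CPM (MT 50 ppm). It was 13730 CPM at PT 40 ppm, 13700 CPM at FT 10 ppm and 15700 CPM at MT 100 ppm. A sum below control was thus not particular to PT 80 ppm. Against the lower parathion doses, without control mice, 7 of the 9 were called lower at PT 80 ppm. Against control, Ccr2 (-0.85) was called lower at PT 80 ppm among the monocyte markers and Dcn (0.36) higher among the stellate markers. When mice 1 and 2 were left out, edgeR called 0 Kupffer cell, monocyte, lymphocyte and stellate markers, with Cd5l at -0.59 (adjusted p = 0.0874), and it called Spp1, Cyp2e1 and 5 acute phase genes. What part any of these had in the result was not tested.

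A comparison of PT 80 ppm with the mean of PT 20 and PT 40 ppm, which uses no control mice, called 20 of the 40 members, all lower, where 25.7% of all genes were called and 12.4% were called lower. The median log2 difference was -0.45, at an unadjusted p under 0.05 there were 26, and DESeq2 called 20. Bst2 (-0.74, edgeR adjusted p = 3.52e-07), Psmb9 (-0.74, adjusted p = 3.38e-05), Lgals3bp (-0.69, adjusted p = 7.57e-04), Ifi27 (-0.57, adjusted p = 8.36e-04) and Zbp1 (-1.20, adjusted p = 0.0031) had the smallest p-values. Slfn5 (-0.44), Helz2 (-0.51) and Stat2 (-0.29) were called here in addition, and so were Ifi44 (-0.69), Oasl2 (-0.56), Oasl1 (-0.68), Oas1a (-0.67), Rtp4 (-0.68), Ifit2 (-0.47), Ifit3 (-0.53), Parp14 (-0.33), Irf7 (-0.51), Cmpk2 (-0.63), Isg15 (-0.53) and Slfn4 (-1.09). Lgals3bp, a secreted glycoprotein, had 2.44, 3.04 and 4.10 CPM in control mice, medians of 3.72 and 3.50 CPM at PT 20 and PT 40 ppm, and 0.919, 2.80 and 3.12 CPM at PT 80 ppm. Without mice 1 and 2 of PT 80 ppm, 4 members (10%) were called (Bst2, Psmb9, Lgals3bp and Ifi27), with 11.7% of all genes. Without mouse 1 alone 7 members (17.5%) were called, with 15.4% of all genes, so both shares lay near that of all genes.

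Among the 40 pathway genes tested, 15 (37.5%) were called in the comparison within parathion, against 25.7% of all genes. Without PT 80 ppm mice 1 and 2 there were 4, H2-K1, H2-D1, B2m and Tap2, or 10% against 11.7% of all genes. The values that follow are with all mice. Lower were the receptor chains Il10rb (-0.37) and Ifngr2 (-0.58), the kinase Tyk2 (-0.59), Irf5 (-0.65), Tlr3 (-0.44), Sting1 (-0.75), Traf3 (-0.58), H2-K1 (-0.26), H2-D1 (-0.42), B2m (-0.42), Tap2 (-0.59) and Psmb10 (-0.42), in log2 units. Irf2 (0.30), Ptpn11 (0.30) and Erap1 (0.23) were higher.

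At the lower parathion doses no member was called. PT 20 ppm had a median member log2 fold change of -0.0063, 1 member at an unadjusted p under 0.05 and 0 called by edgeR, DESeq2 or limma, with 0.0096% of all genes called. Tap1 had its smallest p (0.81, adjusted p = 0.781). PT 40 ppm had a median of -0.14, with 31 of 40 members below control, a count given without the share of all genes below control. There were 3 members at an unadjusted p under 0.05 and 0 called by edgeR, DESeq2 or limma, with 0% of all genes called. Psmb9 had the smallest p there (-0.38, adjusted p = 0.474). An F test over the 3 parathion doses and control called 15 members, with 19.6% of all genes called. Without PT 80 ppm mice 1 and 2 it called 4 members, for which the share of all genes is not given here.

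Fenthion gave small values below control at its 3 lower doses, few of which passed the test. At FT 10 ppm 2 of 40 members were called by edgeR, with 1.57% of all genes called, 11 at an unadjusted p under 0.05, and 2 called by DESeq2 and 2 by limma. Parp14 had 24.4, 37.5 and 49.8 CPM there and changed by -0.47 (SE 0.117, adjusted p = 0.0299). Tap1 was 0.0783, 1.01 and 1.65 CPM in control mice and 1.08, 1.77 and 3.56 CPM at FT 10 ppm, and it rose by 1.23 on the log2 scale (SE 0.336, adjusted p = 0.0461). The FT 10 ppm median lay above the highest control mouse and the groups overlapped, and the lowest control mouse was under the level of 3 counts. Without control mouse 1 or 5 no member was called at FT 10 ppm, and without control mouse 3, 4 or 6 only 1 was.

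FT 2.5, FT 5 and FT 20 ppm had 0 members called by edgeR, DESeq2 or limma, with 0.0096%, 0% and 0% of all genes called. At an unadjusted p under 0.05 there were 7, 6 and 2 members. Median log2 fold changes were -0.19 at FT 2.5 ppm, -0.25 at FT 5 ppm, -0.19 at FT 10 ppm and -0.052 at FT 20 ppm, with 37, 35, 32 and 25 of the 40 members below control. All these counts use the same 7 control mice, so they are not separate results. The share of all genes below control is not given here. The members with the smallest p were Parp14 at FT 2.5 ppm (-0.41, edgeR adjusted p = 0.185), Oas1a at FT 5 ppm (-0.87, adjusted p = 0.395) and Tap1 at FT 20 ppm (0.70, adjusted p = 0.999). Against the mean of its lower doses FT 20 ppm had 36 of 40 members higher (median 0.22), yet edgeR called 0 and DESeq2 0, with 6 at an unadjusted p under 0.05 and 0% of all genes called. Parp14 came nearest (0.30, adjusted p = 0.385). The F test over the fenthion doses and control called 0 members by edgeR, with 7 at an unadjusted p under 0.05 and 0.0768% of all genes called.

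Methidathion left every member uncalled by edgeR at each of its 4 doses, at which 0% (10 ppm), 0% (25 ppm), 0.0096% (50 ppm) and 0.0768% (100 ppm) of all genes were called. At an unadjusted p under 0.05 there were 4, 1, 1 and 11 members, limma called 0 at each dose, and DESeq2 called 1 at MT 100 ppm and 0 elsewhere. Median log2 fold changes were -0.079, -0.079, -0.11 and -0.19 in order of dose, with 28, 27, 30 and 37 of the 40 members below control. As for fenthion, the control mice are shared between doses and the share of all genes below control is not given here. Tap1 had the smallest p at MT 10 ppm (0.95, adjusted p = 0.321), MT 25 ppm (0.84, adjusted p = 0.826) and MT 50 ppm (1.08, adjusted p = 0.999), and Parp14 at MT 100 ppm (-0.48, adjusted p = 0.0615). Parp14 had 29.2, 37.3 and 55.3 CPM at MT 100 ppm, overlapping the controls. MT 100 ppm against its lower doses gave a median of -0.13, 5 members at an unadjusted p under 0.05 and 0 called by edgeR or DESeq2, with 0.0288% of all genes called. Parp14 was again nearest (-0.29, adjusted p = 0.338). The F test over the methidathion doses and control called 0 members by edgeR, with 5 at an unadjusted p under 0.05 and 0.0864% of all genes called.

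**Figure D4:**
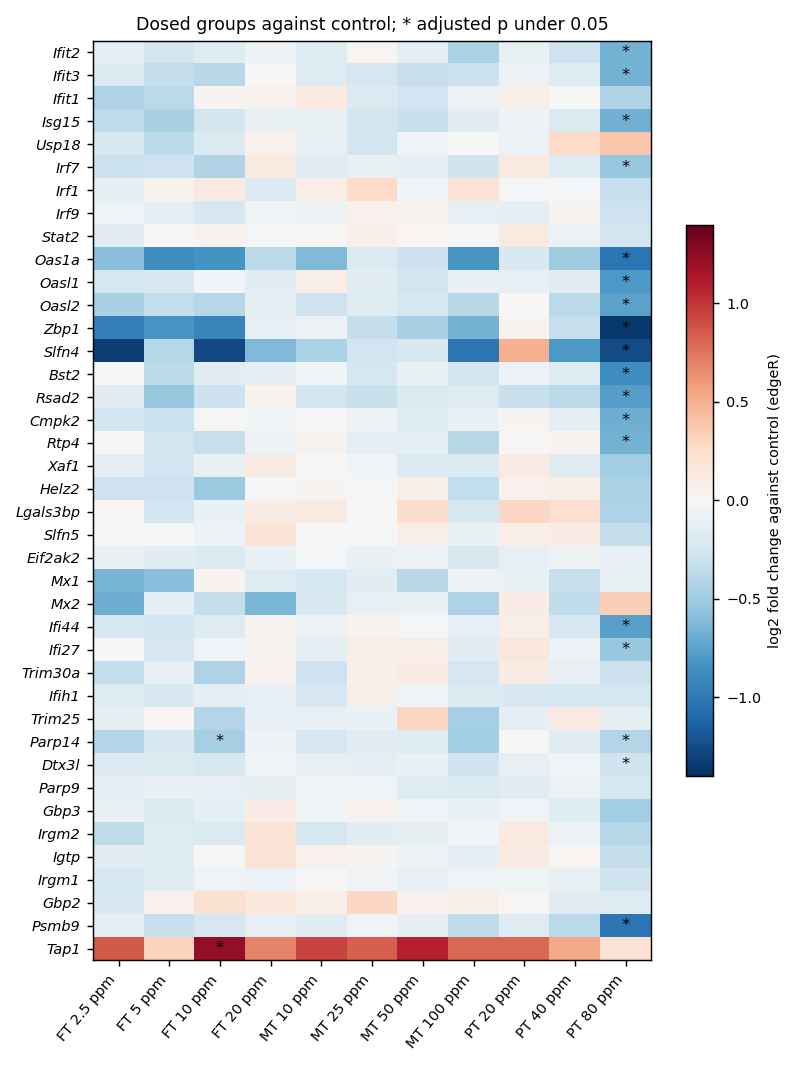
Log2 fold change against control (colour, edgeR) of the 40 tested members in the 11 dosed groups, with asterisks at an adjusted p under 0.05. Asterisks stand at 18 members for PT 80 ppm and at Parp14 and Tap1 for FT 10 ppm, and all columns share the 7 control mice.

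Over all 12 groups the F test called 10 members, against 20.3% of all genes: Bst2 (edgeR adjusted p = 8.46e-06), Psmb9 (adjusted p = 1.55e-04), Parp14 (adjusted p = 7.39e-04), Slfn4, Zbp1, Lgals3bp, Ifit2, Ifi27, Helz2 and Oas1a. Without the PT 80 ppm mice 2 members were called, a count for which the share of all genes is not given here. Parp14 had group medians below that of PT 80 ppm at MT 100, FT 10 and FT 2.5 ppm (37.3, 37.5 and 38.6 CPM), whereas Bst2 and Psmb9 had their lowest medians at PT 80 ppm. Medians of Slfn4 ran from 1.35 CPM at PT 80 ppm to 7.82 CPM at PT 20 ppm, and those of Zbp1 from 3.19 CPM at PT 80 ppm to 7.06 CPM at MT 10 ppm.

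The 2 pairs of groups compared between OPPs had the same dose in the diet and the same stated intake. FT 10 and MT 10 ppm (1.5 mg/kg body weight per day, both dimethyl esters) differed in 0 of 40 members by edgeR and 0 by DESeq2, with 3 at an unadjusted p under 0.05 and 0% of all genes called. The smallest p was that of Helz2, a helicase coactivator, at -0.56 (95% interval -0.93 to -0.19, adjusted p = 0.568). FT 20 and PT 20 ppm (3 mg/kg body weight per day, a dimethyl and a diethyl ester) also differed in 0 members by edgeR and 0 by DESeq2, with 2 at an unadjusted p under 0.05 and 0% of all genes called. Slfn4 had the smallest p (-1.12, 95% interval -1.95 to -0.29, adjusted p = 0.999). In each pair, 38 of 40 intervals lay within a 2-fold difference, and the median distance from the estimate to its bound was 0.395 and 0.396 on the log2 scale. These intervals are not adjusted for the number of genes, whereas a call needed an adjusted p under 0.05 over all genes tested. Differences of that size, and some larger ones, could therefore go uncalled, as those of Helz2 and Slfn4 did.

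Members also differed between the experimental blocks, adjusted for group and isolator. The F test called 18 of 40 members, near the share of all genes, 39.9%, and limma called 15. Irgm1, an immunity-related GTPase, was higher in blocks 3 and 4 than in block 1 by 0.41 and 0.40 on the log2 scale (edgeR adjusted p = 1.15e-08), Oas1a by 0.68 and 0.79 (adjusted p = 1.43e-05), Cmpk2 by 0.51 and 0.58 (adjusted p = 7.57e-05) and Isg15 by 0.47 and 0.48 (adjusted p = 1.67e-04). Stat2, Rsad2, Slfn4, Ifi44, Igtp, Gbp3 and Irf9 were also higher in blocks 3 and 4, and the ubiquitin ligase gene Trim25 was lower (-0.35 and -0.51, adjusted p = 3.79e-04). Median member differences from block 1 were 0.18 and 0.21 in blocks 3 and 4, and block 4 differed from block 3 by a median of 0.0025. Mean module scores were 3.66, 3.82 and 3.85 in blocks 1, 3 and 4, and 3.74, 3.83 and 3.85 without the PT 80 ppm mice.

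RNA isolation by EPA against EA, adjusted for group and block, called 12 of 40 members, 7 higher and 5 lower, against 38.7% of all genes. Mx2, an interferon-induced dynamin-like GTPase, was higher by 1.42 on the log2 scale in EPA mice (edgeR adjusted p = 1.36e-06), Slfn4 by 1.31 (adjusted p = 7.74e-04), Tap1 by 0.85 (adjusted p = 0.00465) and Oas1a by 0.78 (adjusted p = 0.00189). Trim30a (0.48), Stat2 (0.28) and Parp14 (0.27) were also higher. Dtx3l had a log2 difference of -0.54 (edgeR adjusted p = 7.73e-07), and Oasl1 (-0.69), Ifit1 (-0.65), Isg15 (-0.47) and Gbp3 (-0.38) were lower too. The 7 EPA mice came from 4 groups, so this comparison rests on few mice.

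**Figure D5:**
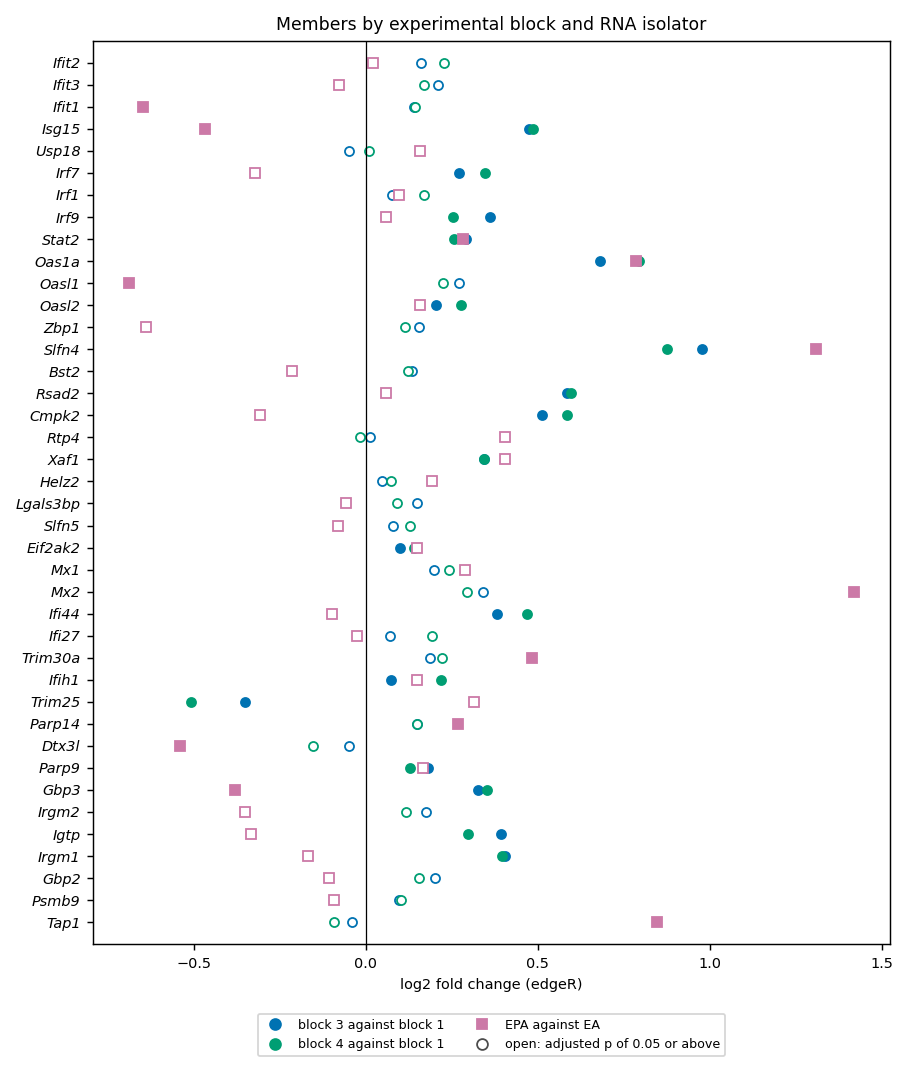
Log2 fold change of the 40 tested members in block 3 and block 4 against block 1 (circles) and in EPA against EA isolation (squares), from the fit over all 84 mice. Filled symbols passed an adjusted p under 0.05 (the F test over 3 blocks for circles), with Mx2 at 1.42 and Slfn4 at 1.31 the largest EPA differences.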

How the data were processed

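Liver RNA of 84 mice was measured by TempO-Seq. In Partek Flow the authors trimmed the reads, mapped them with STAR to the mm39 genome and assigned them to Ensembl transcripts by expectation-maximization, and they deposited estimated counts without normalization, of which 18.7% were not whole. A second deposited table holds log2(CPM + 1) values that the authors adjusted for block and isolator, entered among the units as a score. In that table the mean of every block and isolator combination lay within 0.001 of its group mean for all 11064 genes, so an F test on it takes that spread as removed and was used only as an alternative.

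Counts were rounded and fitted with the quasi-likelihood test of edgeR 4.0.16 in R 4.3.3, after TMM normalization, over all mice with group, block and isolator, for 10415 genes with a median count above 8, with Benjamini-Hochberg adjustment over all of them. A member was called at an adjusted p under 0.05. DESeq2 1.42.0 and limma 3.58.1 on log2(CPM + 1) were alternatives, with other filters, covariates and mice. The code was tested on simulated data. The members and lists were chosen with earlier results of these data known. Named were all called members at PT 80 ppm and within parathion, at most 12 for block and isolator, and the member with the smallest p elsewhere. Per-mouse values were given for the 8 members with the smallest p over the 12 groups and for others chosen after their values were seen. Gene positions came from a GENCODE annotation of GRCm39, the assembly called mm39. Promoters came from a RefSeq table of GRCm38.p6 and were placed on GRCm39 by exact match. Where the probes lie in each gene was not used here. The values of 1 gene that the rule would name are not reported here.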

Additional observations from a re-analysis of the deposited data

Results flagged for a closer look

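Of 108 groups tested for a single mouse far from the rest (the module score and 8 members in 12 groups of 7 mice), 8 stood out by Dixon's criterion, and chance gives about 1 in 20. In every case it was the lowest mouse. In 3 cases it was PT 80 ppm mouse 1, with Zbp1 at 0.0919 CPM (next mouse 2.29), Lgals3bp at 0.919 CPM (next 2.08) and Ifi27 at 30.2 CPM (next 80.1). In FT 10 ppm, mouse 2 of block 1 stood out in the module score, at 3.43 (next 3.71), and in Bst2, at 13.4 CPM (next 30.01). Ifit2 was low in FT 5 ppm mouse 1, at 5.37 CPM (next 6.88), and in MT 10 ppm mouse 2, at 5.71 CPM (next 7.24). Psmb9 was low in MT 25 ppm mouse 4, at 10.0 CPM (next 14.2).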

How the results depend on the processing

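Of the counts of called members, 201 alternatives stayed within 1.5 times the reported count and 33 did not. The 201 include counts of 0 that stayed at 0, so they do not measure how well the larger counts held. No value changed sign where it was called. At PT 80 ppm (18 members) the count was 4 with a 2-fold change also required, 11 with group alone in the model, 5 with control and parathion mice alone, and 2 without both block 1 mice of that group or without the block 1 mice of every group. It ranged from 7 to 23 over fits without 1 PT 80 ppm mouse and from 10 to 20 without 1 control mouse. At FT 10 ppm (2 members) it was 1 with a 2-fold change required or no filter on low counts, 4 with group alone, 0 with control and fenthion mice alone, with EA mice alone or without the block 1 mice of every group, and 0 to 2 without 1 control mouse. At MT 100 ppm (0 members) it was 1 with control and methidathion mice alone, 1 by DESeq2, and 0 to 1 without 1 control mouse. The F test over 12 groups called 2 members without the PT 80 ppm mice. PT 80 ppm against lower parathion doses (20 members) gave 4 without both block 1 mice and 7 to 26 without 1 mouse, and the F test over parathion doses gave 4 without both. On the deposited adjusted values the F test called 29 (FT), 24 (MT) and 31 (PT) members, and 3, 2 and 3 with a 2-fold change. Those values have the block and isolator spread removed, and 11 of the 43 combinations of group, block and isolator held 1 mouse. Counts in this paragraph are given without the share of all genes called. They describe dependence on the processing and are not a result about the members. The difference in module score from control moved within blocks: PT 80 ppm was -1.03, -0.30 and -0.058 in blocks 1, 3 and 4 against -0.44 over all mice, FT 20 ppm 0.18 in block 1 and -0.14 in block 3, MT 25 ppm 0.12 and -0.29, MT 50 ppm 0.16 and -0.27, MT 100 ppm 0.062 in block 4 and PT 40 ppm 0.12 in block 1. Within 1 SD but of opposite sign in blocks 1 and 3 were PT 20 ppm (0.10 and -0.15) and MT 10 ppm (0.086 and -0.16). In block 3 the score of every dosed group was below that of the shared control mice. Of 40 pathway genes, 6 were called at PT 80 ppm with all mice and 3 without its block 1 mice. Fits without chosen block 1 mice, those of pathway and marker genes, and those without 1 PT 80 ppm mouse for the comparison within parathion and the module score, were chosen after seeing the data. The causes of these changes were not tested, except that fewer mice enter the smaller fits. Of the results for single members, 531 kept their side of the threshold and 197 lost it. No paired analysis was possible because the labels carry no replicate numbers that match single mice across groups, and the experimental blocks that the groups share were a term of the model. Members under 3 counts (0.196 to 0.432 CPM) in a mouse cannot be told from 0 at this depth.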
